A study of Homo sapiens with 9 samples.

Results

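The 10 genes described here were the D-type cyclins CCND2 and CCND3, their kinases CDK4 and CDK6, the kinase inhibitors CDKN1B, CDKN2C and CDKN2D, the pocket proteins RB1 and RBL2 and the transcription factor E2F1. They were chosen by name, as genes that control entry into the cell cycle, from the 62700 genes of the GENCODE 44 annotation, and transcript values were summed per gene. Earlier results of these data were known when these genes were chosen. The data came from HAL-01, a B cell precursor acute lymphoblastic leukemia line in which t(17;19) gave rise to the fusion protein TCF3::HLF. All 9 libraries were from HAL-01 cells that stably express Cas9 with GFP and were collected on day 13 after they received a guide RNA. In 6 libraries the guide was directed at the TCF3::HLF-bound enhancer of MEF2C, with 3 libraries for sgRNA_96 and 3 for sgRNA_97, and together these are called KO; in the other 3 the guide was the scrambled control SCR1. The labels do not give the share of edited alleles, and whether the cells were sorted or were a single clone is not given in the sources used here. Replicates were numbered 1, 3 and 4 in each group, and nothing says that they came from separate cultures, so the p-values measure the spread between these libraries, which may be technical.

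In the G1 phase, D-type cyclins pair with CDK4 or CDK6 and phosphorylate the pocket proteins, which otherwise hold E2F transcription factors in check; released E2F factors then switch on the genes of DNA replication. INK4 inhibitors such as CDKN2C (p18) and CDKN2D (p19) bind CDK4 and CDK6 directly, whereas CDKN1B (p27) blocks cyclin E and CDK2 and can also help assemble cyclin D complexes. Lymphoid precursors rely mainly on CCND2, CCND3 and CDK6, and RBL2 (p130) with E2F4 keeps cell cycle genes silent in resting cells.

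Library totals ran from 15212462 to 29777361 estimated counts, the largest being SCR1 replicate 1, and replicates differed by more than counting noise in every group. MEF2C lay at 559.6, 559.0 and 536.1 CPM (counts per 1000000 counts) in SCR1, at 495.4, 497.7 and 510.1 CPM with sgRNA_96 and at 552.8, 504.7 and 494.9 CPM with sgRNA_97. It was below every SCR1 library in 5 of 6 KO libraries, but the decrease of 0.12 ± 0.04 (log2, SE) did not pass the test (adjusted p = 0.062, edgeR quasi-likelihood). It passed in 5 of 18 alternative settings: DESeq2 (adjusted p = 0.0265), the average transcript length offset (0.0492), the length and GC trend offsets (0.0237 and 0.00495) and without sgRNA_97 replicate 1 (-0.14, adjusted p = 0.0143). Of 7 B cell precursor markers, 0 passed in this edgeR fit, where 4 had an unadjusted p below 0.05. DESeq2 called 1, leaving out sgRNA_96 replicate 4 or sgRNA_97 replicate 1 gave 1 each, and the length and GC trend offsets described below gave 4 each. Their summed level was 1581.9 to 1648.1 CPM in SCR1 and 1548.9 to 1657.3 CPM in KO. Of 12 markers of other cells, 10 were below the filter on low counts, with CD3D, CD3E, HBB and COL1A2 among those at 0. The other two, the myeloid genes MPO and ITGAM, rose by 1.08 ± 0.19 and 0.74 ± 0.11 (log2, SE; adjusted p = 0.000894 and 0.000162; ITGAM did not pass on log2(TPM + 1), adjusted p = 0.121), and the summed level of the list was 9.5 to 10.9 CPM in SCR1 and 15.6 to 19.7 CPM in KO; their part in the results below was not tested.

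The HAL-01 control cells expressed 9 of the 10 genes, and the order of their levels was compared as TPM, in which each library's transcripts sum to 1000000 after scaling by length. CCND3 was the highest, at 532.1 ± 9.6 TPM (SD, n = 3), followed by CDK4 at 261.8 ± 4.9 TPM. E2F1 stood at 83.2 ± 5.9 TPM, RB1 at 64.0 ± 5.8 TPM and CDKN2C at 63.1 ± 3.0 TPM, and the ranges of RB1 and CDKN2C overlapped. Below them came RBL2 (45.3 ± 1.4 TPM), CDKN1B (37.8 ± 3.0 TPM), CDK6 (28.5 ± 0.98 TPM) and CDKN2D (22.7 ± 1.4 TPM), with no overlap between neighbours in this order.

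CCND2, the other D-type cyclin of the set, had almost no reads. It had 0 to 3 counts per library in both conditions, where 3 counts corresponded to 0.101 to 0.197 CPM, so it fell below the filter and entered no test. A protein-coding gene model on the same strand, ENSG00000285901, overlaps CCND2 and averaged 18.1 counts. CCND1 was at 0 counts in every library, as were the INK4 genes CDKN2A and CDKN2B, and CDKN1C had 0 to 7 counts. CCND3 was thus the D-type cyclin that passed the filter, and CDK4 exceeded CDK6 by 8.83 to 9.46 times in TPM in SCR1. This ratio rests in large part on minor CDK4 transcripts. CDK4-201 held 68.2 to 69.7% of the CDK4 counts in SCR1 but was at 120.49 to 121.75 TPM, against a gene sum of 257.2 to 267 TPM. In CPM, which are not scaled by length, CDK6 was above CDK4 in SCR1, as given below.

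**Figure D1:**
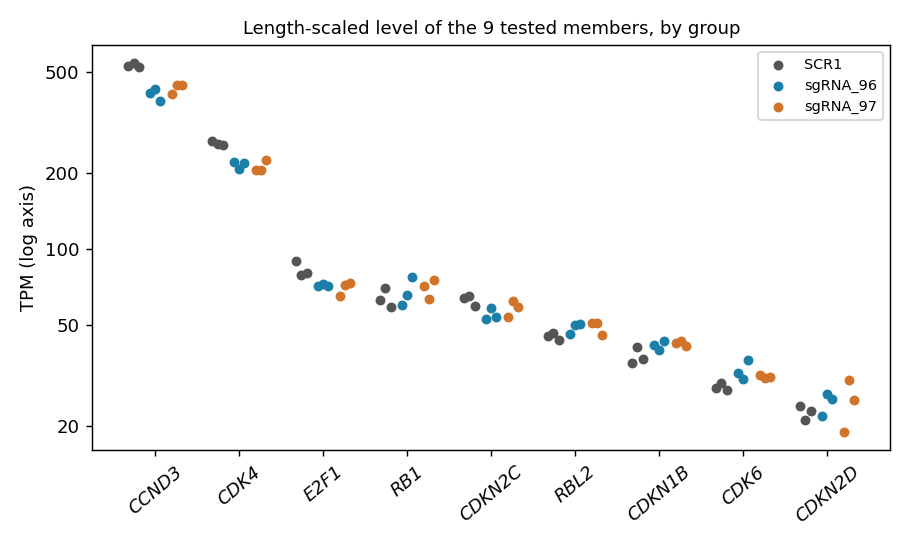
TPM on a log axis for the 9 tested genes, with 1 point per library and the groups in colour. CCND3 and CDK4 lie above the other genes in every library, and both are lower in the sgRNA_96 and sgRNA_97 libraries than in SCR1.

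Across the 9 tested genes, 4 fell and 3 rose in KO relative to SCR1 at an adjusted p below 0.05, and 2 did not pass. CCND3, CDK4, CDKN2C and E2F1 fell by 15.4 to 22%, and CDKN1B, RB1 and RBL2 rose by 10.7 to 11.9%. Among all 14436 genes tested, 20.7% passed, 10.6% lower and 10.1% higher. The KO and SCR1 ranges did not overlap for 6 of the 9 genes, against 20.3% of all genes. The median log2 change of the 9 genes was 0.14, against 0.003 for all genes, and describes neither direction. Without SCR1 replicate 1, 3 genes passed (CCND3, CDK4 and CDKN2C), and without SCR1 replicate 4, 4 did (these and E2F1). Calls over all genes also fell in these settings, from 2984 to 1503 and 1813. Because RNA came from bulk cells, fewer cells of a type and less RNA per cell cannot be told apart.

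**Figure D2:**
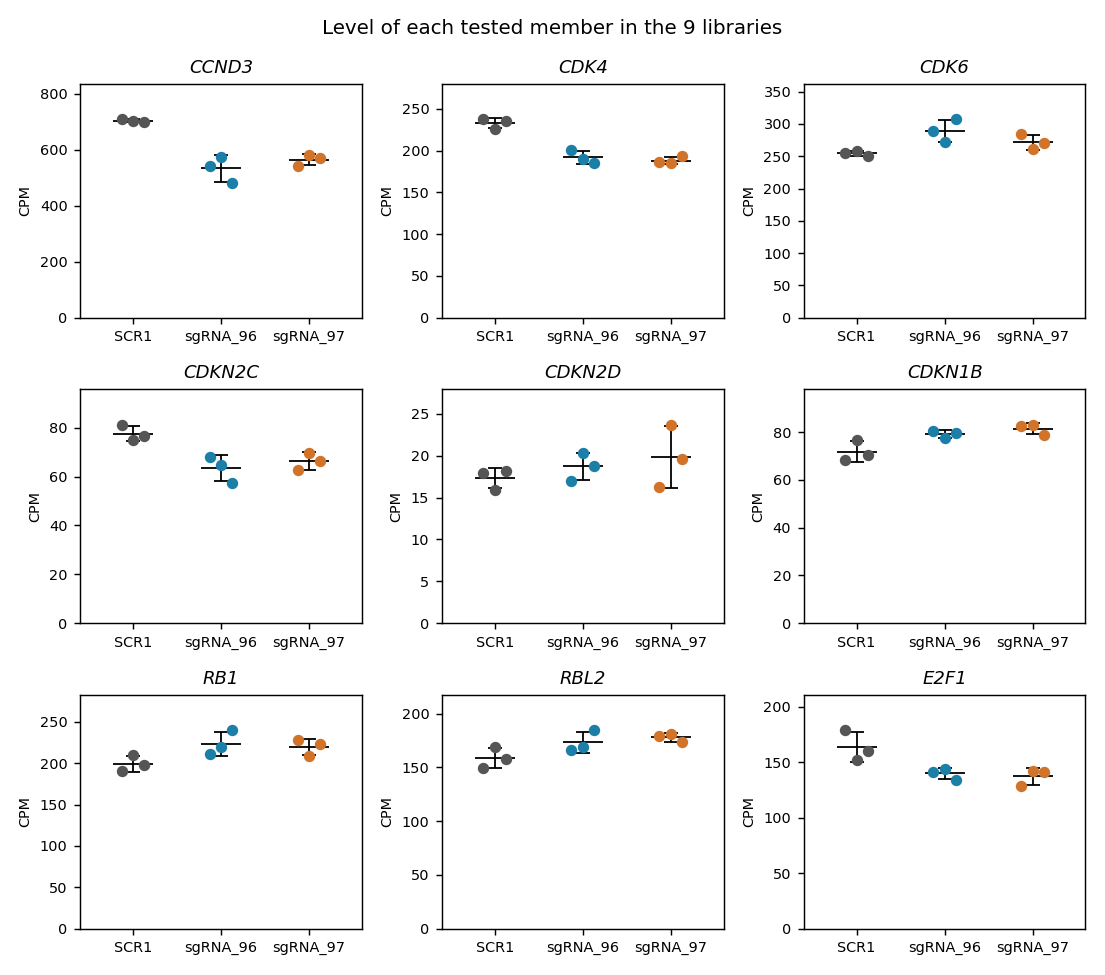
CPM of each tested gene in each library, with the mean and SD of each group of 3 as a bar; every axis starts at 0. The 6 KO points lie below all SCR1 points for CCND3, CDK4, CDKN2C and E2F1 and above them for CDK6 and CDKN1B.

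CCND3, the main D-type cyclin here, showed the largest decrease of the 9 genes. It was at 709.3, 703.2 and 700.7 CPM in SCR1, at 544.2, 575.0 and 482.5 CPM with sgRNA_96 and at 542.3, 582.0 and 570.3 CPM with sgRNA_97. All 6 KO libraries lay below all 3 SCR1 libraries. The log2 fold change was -0.36 ± 0.05 (SE, adjusted p = 0.000139). It was -0.40 ± 0.06 with sgRNA_96 (adjusted p = 0.000456) and -0.32 ± 0.06 with sgRNA_97 (adjusted p = 0.00211), both against the same 3 SCR1 libraries. One transcript, CCND3-203, held 84.7 to 90.4% of the gene's counts in each library.

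CDK4, the kinase that CCND3 activates, was also lower in every KO library. It was at 237.3, 225.7 and 234.8 CPM in SCR1, at 200.5, 189.6 and 185.4 CPM with sgRNA_96 and at 186.0, 184.7 and 193.0 CPM with sgRNA_97. The log2 fold change was -0.29 ± 0.04 (SE, adjusted p = 0.000133), and both guides passed separately (adjusted p = 0.00227 and 0.000951). Parts of CDK4 overlap TSPAN31 and MARCHF9 on the opposite strand, which averaged 312.2 and 249.2 counts, and the strand setting of the counting is not given in the sources used here.

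CDK6, the partner kinase, moved the other way without passing the test in KO. It was at 255.1, 258.6 and 249.9 CPM in SCR1, at 288.5, 271.7 and 307.2 CPM with sgRNA_96 and at 284.3, 261.0 and 270.4 CPM with sgRNA_97, so the ranges did not overlap. The log2 fold change was 0.14 ± 0.05 (SE, adjusted p = 0.0522). It passed in 3 of 18 alternative settings: without sgRNA_97 replicate 3 (0.16, adjusted p = 0.0279), with DESeq2 (0.14, adjusted p = 0.0246) and with the average transcript length offset (0.17, adjusted p = 0.0391). It passed with sgRNA_96 (0.18 ± 0.05, adjusted p = 0.0397) and not with sgRNA_97 (0.10 ± 0.05, adjusted p = 0.261), and the guides did not differ detectably (-0.09 ± 0.05, adjusted p = 1). CDK6 is the longest of the genes (11474 bases), and with an offset for the length trend described below its change was 0.01 (adjusted p = 0.88). The ratio of CDK4 to CDK6 TPM was 6.02 to 7.21 in KO, below the range in SCR1 in all 6 libraries. CDK6-201 and CDK6-202 split the counts unevenly among libraries, with CDK6-201 taking 45.8 to 84.6% in SCR1 and 69.1 to 93.1% in KO.

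Of the kinase inhibitors, CDKN2C fell. It was at 81.2, 75.2 and 76.5 CPM in SCR1, at 67.8, 64.9 and 57.5 CPM with sgRNA_96 and at 62.5, 69.9 and 66.3 CPM with sgRNA_97, again with no overlap. The log2 fold change was -0.26 ± 0.06 (SE, adjusted p = 0.00489). On log2(TPM + 1) it was -0.15 (adjusted p = 0.168, limma). In counts, the longer transcript CDKN2C-203 held 79.2 to 86.7% in SCR1 and 72.2 to 87.2% in KO.

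CDKN1B rose slightly. It was at 68.4, 76.6 and 70.4 CPM in SCR1, at 80.5, 77.4 and 79.5 CPM with sgRNA_96 and at 82.5, 83.0 and 78.8 CPM with sgRNA_97, and the lowest KO library was just above the highest SCR1 library. The log2 fold change was 0.16 ± 0.05 (SE, adjusted p = 0.0269). Leaving out SCR1 replicate 1 ended the call (0.13, adjusted p = 0.174), as did leaving out SCR1 replicate 4 (0.15, adjusted p = 0.117) or sgRNA_97 replicate 3 (0.15, adjusted p = 0.0501). CDKN2D, the least abundant of the 9 genes, ranged from 16.0 to 18.2 CPM in SCR1 and from 16.2 to 23.7 CPM in KO, and its change of 0.15 ± 0.10 did not pass (adjusted p = 0.331). CDKN1A (p21), a target of p53 and no member of this set, was at 339.8 ± 10.2 CPM in SCR1 (SD, n = 3) and 341.6 ± 13 CPM in KO (SD, n = 6), with a log2 change of 0.01 ± 0.04 (adjusted p = 0.928) whose sign differed between alternative settings.

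The pocket protein genes RB1 and RBL2 rose by similar, small amounts. RB1 was at 190.6, 209.6 and 197.6 CPM in SCR1 and at 208.2, 221.1 and 239.6 CPM (lowest, median, highest) in KO, with 5 of 6 KO libraries above every SCR1 library. RBL2 was at 149.6, 168.7 and 158.2 CPM in SCR1 and at 166.6, 176.2 and 184.5 CPM in KO, also with 5 of 6 above. The log2 fold changes were 0.15 ± 0.05 (SE, adjusted p = 0.037) for RB1 and 0.15 ± 0.05 (adjusted p = 0.0422) for RBL2, and neither gene passed with sgRNA_96 or sgRNA_97 alone (adjusted p = 0.0824 and 0.125 for RB1, 0.171 and 0.0673 for RBL2). Without SCR1 replicate 1 neither passed (adjusted p = 0.203 and 0.255), nor without SCR1 replicate 4 (both adjusted p = 0.13), sgRNA_96 replicate 4 (0.0616 and 0.0716), sgRNA_97 replicate 1 (0.063 and 0.0674) or sgRNA_97 replicate 4 (0.0619 and 0.0585). RB1 also lost its call without sgRNA_96 replicate 3 (adjusted p = 0.0606) and RBL2 without sgRNA_97 replicate 3 (adjusted p = 0.0732). Neither gene passed on log2(TPM + 1) (adjusted p = 0.509 and 0.254, limma) or with the average transcript length offset (0.399 and 0.202, edgeR). The retained-intron transcript RBL2-209 held 21.3 to 26.4% of the RBL2 counts in SCR1 and 25.3 to 28.8% in KO. RB1 overlaps LPAR6 and RCBTB2 on the opposite strand, with means of 720.2 and 794.9 counts. In the related gene RBL1 (p107) the change was -0.16 ± 0.07 (adjusted p = 0.121). It passed with the length and GC trend offsets (adjusted p = 0.0212 and 0.0124).

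E2F1, the activating E2F of this set, fell. It was at 178.6, 151.5 and 160.3 CPM in SCR1, at 141.4, 143.5 and 134.3 CPM with sgRNA_96 and at 128.2, 142.2 and 141.2 CPM with sgRNA_97. All KO libraries were below all SCR1 libraries, of which replicate 1 stood highest. The log2 fold change was -0.24 ± 0.05 (SE, adjusted p = 0.00482), and it was -0.17 (adjusted p = 0.0594) without SCR1 replicate 1.

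Among the members' promoter entries, only that of E2F1 held E2F matches, and that of CDK4 held the most E-boxes. Both are shown. Each is a RefSeq promoter of 300 bases, build GRCh38.p14, that runs from 250 bases before the start site to 50 after it. E2F1 lies at chr20:33686336-33686635 on the minus strand, and capitals mark 2 matches to the E2F letters TTTCCCGC, TTTCGCGC, TTTGCCGC or TTTGGCGC on either strand. CDK4 lies at chr12:57752261-57752560 on the minus strand, and capitals mark 3 E-boxes with the letters CACGTG.
E2F1: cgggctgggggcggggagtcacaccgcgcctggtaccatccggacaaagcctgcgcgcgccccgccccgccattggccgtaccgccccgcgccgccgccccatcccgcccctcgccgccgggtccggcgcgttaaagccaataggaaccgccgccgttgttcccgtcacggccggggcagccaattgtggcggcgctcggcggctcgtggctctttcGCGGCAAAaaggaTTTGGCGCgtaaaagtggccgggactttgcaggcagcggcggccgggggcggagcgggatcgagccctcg
CDK4: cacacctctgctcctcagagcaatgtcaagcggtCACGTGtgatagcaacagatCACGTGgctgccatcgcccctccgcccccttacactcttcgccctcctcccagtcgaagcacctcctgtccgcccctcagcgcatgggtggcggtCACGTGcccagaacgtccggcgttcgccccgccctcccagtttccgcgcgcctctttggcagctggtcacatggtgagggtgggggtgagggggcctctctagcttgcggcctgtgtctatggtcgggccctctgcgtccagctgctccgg
In the E2F1 promoter the matches covered bases -33 to -26 and -20 to -13 relative to the start site at 0. Among 35116 RefSeq promoters of the same length, 3.31% held an E2F match and 7.26% an E-box. Promoter entries matched 9 of the 10 genes, and CCND2 had none. The RB1 entry, at chr13:48476200-48476499 on the plus strand, lies inside the gene, which starts at base 48303744. Letters at the start of RB1 were therefore not searched. CDKN2C, which fell, had an E-box in 2 of its 3 promoters. Motifs were not limited to genes that fell. CDK6, which did not pass, had 1 E-box, and RBL2, which rose, held the CHR letters TTTGAA, found in 15.2% of all promoters. A match describes the letters only and says nothing of binding.

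**Figure D3:**
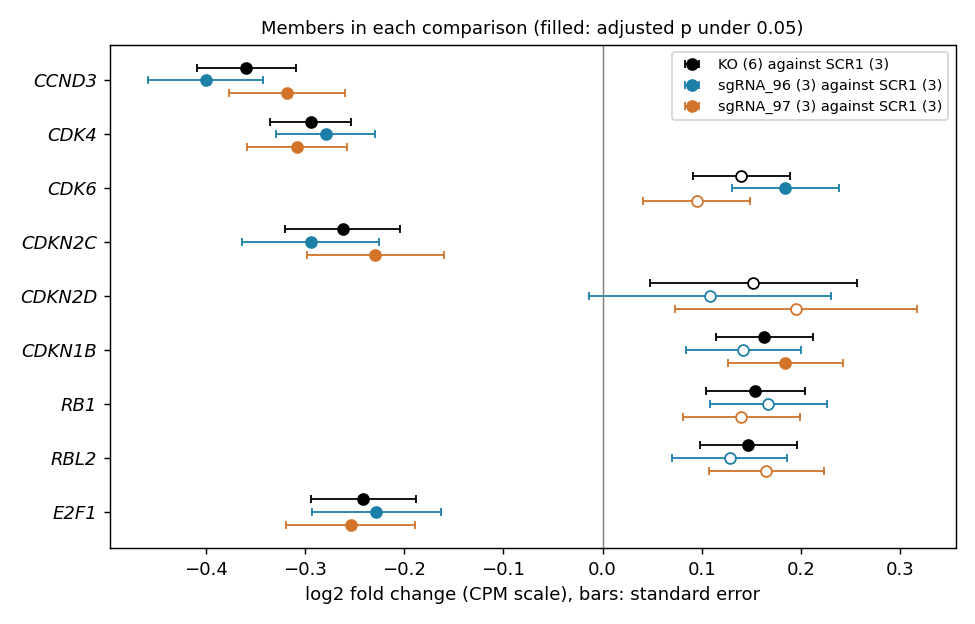
Log2 fold change with its standard error for each tested gene in KO, sgRNA_96 and sgRNA_97, all against the same 3 SCR1 libraries; filled points passed at an adjusted p below 0.05. CCND3, CDK4, CDKN2C and E2F1 are filled in all 3 comparisons, and the rises are smaller and mostly open.

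With each guide analysed on its own, 5 of the 9 genes passed against SCR1, where 11.2% of all genes passed for sgRNA_96 and 15.1% for sgRNA_97. The 4 decreases passed with each guide. The single rise that passed was CDK6 with sgRNA_96 and CDKN1B with sgRNA_97 (0.18 ± 0.06, adjusted p = 0.0449). These comparisons share their control libraries. CCND3 and CDK4 passed with each guide whichever library was left out, whereas the calls of CDK6, CDKN1B, CDKN2C and E2F1 with 1 guide were each lost on leaving out 1 or more libraries, among them SCR1 replicate 1 for all 4 genes (adjusted p = 0.0735 to 0.203). In the direct test of sgRNA_97 against sgRNA_96, no gene of the set passed by edgeR or DESeq2, none had an unadjusted p below 0.05 in edgeR, and 0.0208% of all genes passed. Their differences ran from -0.09 to 0.09 on the log2 scale, with SEs of 0.05 to 0.12.

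The called genes that fell were 1316 to 2690 bases long, and those that rose were 2629 to 4753 bases long. CDKN2D, the shortest gene (1170 bases), had a positive change that did not pass. Across all genes, the median log2 change went from -0.05 in the shortest of 5 length classes to 0.06 in the longest (Spearman correlation across genes 0.138 with length and -0.206 with GC content; genes are not independent replicates). With an offset for the length trend, a setting chosen after seeing the data, 5 of the 9 genes passed, against 18.6% of all genes: CCND3 (-0.34, adjusted p = 0.000132), CDK4 (-0.25, adjusted p = 0.000276), CDKN2C (-0.24, adjusted p = 0.00577), E2F1 (-0.25, adjusted p = 0.00388) and CDKN1B (0.16, adjusted p = 0.0284). RB1 (0.11, adjusted p = 0.0887) and RBL2 (0.10, adjusted p = 0.132) did not. With an offset for the GC trend, also chosen after seeing the data, RB1 was at 0.07 (adjusted p = 0.186) and did not pass, E2F1 was at -0.17 (adjusted p = 0.0079), and the other genes called in KO passed. Whether either trend is technical was not tested.

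**Figure D4:**
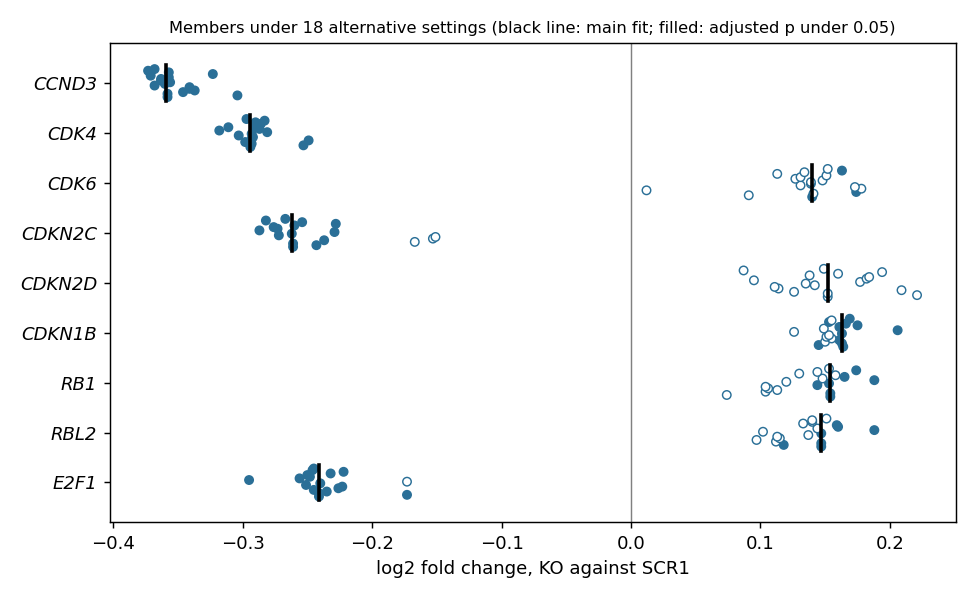
Log2 fold change in KO against SCR1 under the main fit (black line) and 18 alternative settings (points, filled where the adjusted p was below 0.05). CCND3 and CDK4 are filled in all 18, E2F1 in 17 and CDKN2C in 15, whereas CDKN1B is filled in 11 and RB1 and RBL2 in 7 each.

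The wider G1/S machinery was taken as a list of 38 other genes. Of 34 tested, 16 fell, 2 rose and 16 did not pass, where 10.6% of all genes fell and 10.1% rose, and the median log2 change was -0.15. MYBL2, a transcription factor of proliferating cells, was at 375.9 ± 29.3 CPM in SCR1 and 265.0 ± 19.95 CPM in KO (SD; log2 -0.51 ± 0.06 SE, adjusted p = 3.3e-05). The cyclin E gene CCNE1 fell from 9.56 ± 0.93 to 6.72 ± 1.12 CPM (log2 -0.50 ± 0.14, adjusted p = 0.0172), a call lost without SCR1 replicate 1 (adjusted p = 0.0644) or 3 (0.075). The log2 change was -0.28 for CCNE2, -0.33 for their kinase CDK2, -0.30 for CCNA2 and -0.37 for the CDK-activating phosphatase CDC25A. KO and SCR1 ranges were apart for each, as the choice of named genes required. In the whole list they were apart for 16 of the 34 tested genes, against 20.3% of all genes. FBXW7, which marks cyclin E for degradation, went the other way: it was at 66.9, 73.3 and 64.6 CPM in SCR1 and at 100.7, 118.9 and 127.9 CPM (lowest, median, highest) in KO, a log2 change of 0.78 ± 0.07 (adjusted p = 1.49e-06).

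Within the E2F family, E2F2 fell beside E2F1, being at 182.0 ± 6.6 CPM in SCR1 and 150.4 ± 3.2 CPM in KO (SD; log2 -0.28 ± 0.04 SE, adjusted p = 0.000221). The atypical repressors E2F7 and E2F8, themselves E2F targets, fell by 0.33 ± 0.07 and 0.24 ± 0.06 on the log2 scale (adjusted p = 0.00237 and 0.0142); E2F8 did not pass without SCR1 replicate 3 (adjusted p = 0.0957). E2F3 (-0.15, adjusted p = 0.068), E2F4 (-0.14, adjusted p = 0.125), E2F5 (0.08, adjusted p = 0.665) and E2F6 (-0.11, adjusted p = 0.22) did not pass. E2F3 passed with sgRNA_97 (-0.21, adjusted p = 0.029), and in KO without sgRNA_96 replicate 1 or 4 (adjusted p = 0.0418 and 0.021) and with the length and GC trend offsets (0.0159 and 0.0201). E2F4 passed in KO without sgRNA_96 replicate 1 (adjusted p = 0.0187) and without the filter (0.0431).

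The list of E2F-driven S phase genes was the most uniform. Of 25 genes, 23 fell and 1 rose, where 10.6% of all genes fell and 10.1% rose. The median log2 change was -0.33, against 0.003 for all genes. The summed level was 6530.5 to 6602.1 CPM in SCR1 and 5257.8 to 5380.0 CPM in KO. The largest decreases were in GINS2 (-0.50 ± 0.04, adjusted p = 1.82e-06), a subunit of the replicative helicase, and in the origin licensing gene CDC6 (-0.49 ± 0.05, adjusted p = 1.04e-05). TK1, which salvages thymidine, fell by 0.49 ± 0.06, and CDT1, ORC1, MCM2, RRM2 and CDC45 fell by 0.38 to 0.44 on the log2 scale. The gene that rose was POLE, the leading strand polymerase (0.13 ± 0.04, adjusted p = 0.0417), chosen after its value was seen; it did not pass without any 1 SCR1 library (adjusted p = 0.0929 to 0.169), without sgRNA_96 replicate 3 or sgRNA_97 replicate 3 or 4 (0.0573 to 0.0816) or with the length trend offset (0.07, adjusted p = 0.295), and PRIM1 did not pass (-0.23, adjusted p = 0.0956). PRIM1 passed when sgRNA_97 replicate 3 was left out (-0.29, adjusted p = 0.0264), without the filter (adjusted p = 0.0334) and with the GC trend offset (adjusted p = 0.0248).

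Of 12 listed genes linked to quiescence, 11 were tested, and 8 rose where 10.1% of all genes did. The other 3 did not pass, 2 of them with changes below 0 (BTG1 -0.10, adjusted p = 0.162, and TOB1 -0.02, adjusted p = 0.88), and CCNG2 was at 0.10 (adjusted p = 0.252). The median log2 change was 0.33. TXNIP, an inhibitor of glucose uptake, was at 54.9, 65.8 and 64.7 CPM in SCR1 and at 105.6, 143.9 and 159.8 CPM (lowest, median, highest) in KO (1.15 ± 0.11, adjusted p = 5.23e-06). PIK3IP1, an inhibitor of PI3 kinase, rose by 0.62 ± 0.12 and the antiproliferative gene BTG2 by 0.47 ± 0.05. SESN1 rose by 0.38 ± 0.05 and the transcription factors FOXO1 and FOXO3 by 0.37 ± 0.05 and 0.23 ± 0.06. KLF2 was below the filter. Without SCR1 replicate 1 or 4, 5 of the 11 passed, and FOXO3 did not (adjusted p = 0.144 and 0.0739). Calls over all genes fell too, from 2984 to 1503 and 1813.

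**Figure D5:**
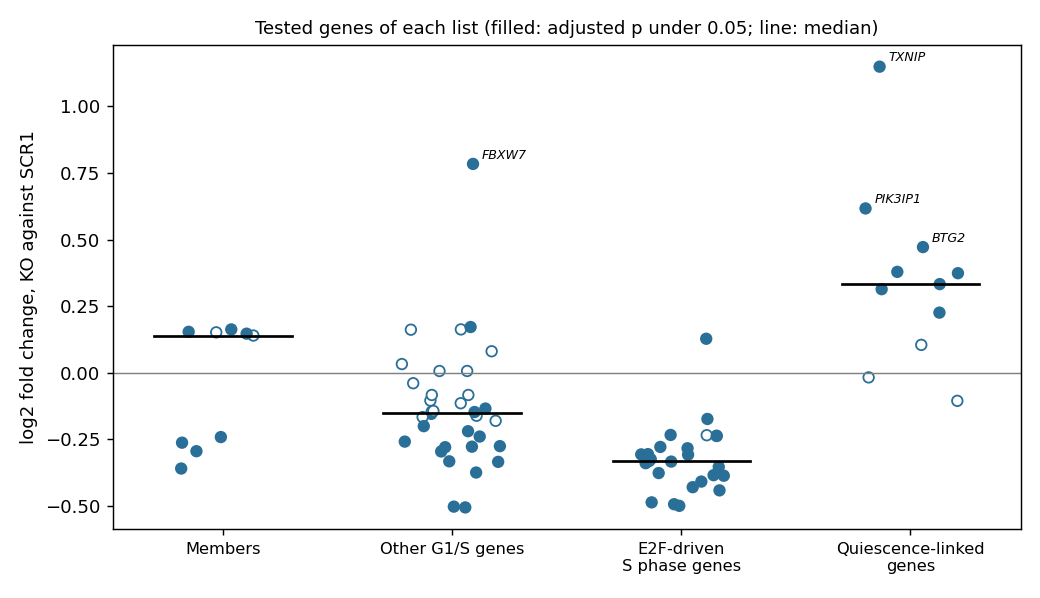
Log2 fold change in KO against SCR1 for the tested genes of each list, filled where the adjusted p was below 0.05, with the median as a line. The members split around 0, the S phase genes lie below 0 except POLE, and TXNIP and FBXW7 lie highest in their lists.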

How the data were processed

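RNA from 9 HAL-01 libraries was sequenced by the authors after poly(A) selection. Reads were aligned with STAR to GRCh38 and quantified with Salmon 1.10.1, per the labels, and the deposited files hold estimated counts and TPM per transcript made by the authors. The annotation release is not given in the sources used here, but all 252835 transcript IDs match GENCODE 44. Here transcripts were summed per gene, estimated counts were rounded, and edgeR 4.0.16 (R 4.3.3) was used with TMM scaling, filterByExpr (minimum count 10), the quasi-likelihood test and Benjamini-Hochberg adjustment over all tested genes. KO was fitted as 6 against 3 libraries and the guides in a fit of 3 groups. CPM are TMM-scaled, and fold changes are log2 on that scale. Alternatives were RLE scaling, DESeq2 1.42.0, no filter, limma 3.58.1 on log2(TPM + 1) and log2(TPM + 0.1), an average transcript length offset, a replicate block and leaving out each library, with length and GC trend offsets (lowess span 0.3) added after seeing the data. The genes and lists were chosen with earlier results of these data known. Named genes are all members, up to 8 per list that passed with ranges apart, and the family genes of cyclin D, CDK inhibitors, pocket proteins and E2F. The lists were other G1/S genes, E2F-driven S phase genes, quiescence-linked genes, markers of other cells, of which 1 is not reported here by name, and B cell precursor markers.

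The fits were tested on simulated counts for KO against SCR1 (14230 genes, 197 of them changed, each by 1 on the log2 scale). This was larger than the change of any member, the largest being -0.36 for CCND3, so recovery of changes that small was not tested. Recovery was 80.2% with edgeR, 81.2% with DESeq2, 79.7% with the length trend offset and 78.7% with the replicate block, and no call had the wrong direction. The first criterion was a recovery above 80% in each fit, which the last 2 missed, and a first limit on false calls, 15% of the recovered genes, was missed by DESeq2 (26 false calls, 16.2%, against 14 for edgeR). Both criteria were then recorded rather than enforced, and no fit was changed. False calls made up 8.1% of edgeR's calls and 14% of DESeq2's, above the nominal 5%, so calls close to the threshold are less certain than their adjusted p states. The false share may differ in the data, where 20.7% of all genes passed.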

Additional observations from a re-analysis of the deposited data

Results flagged for a closer look

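In the 6 KO libraries, 44 values were checked for a library that stood apart from the others, by the ratio of its gap to the group's whole range (limit 0.625), and chance marks about 1 in 20. The marked values, 2 in number, were both in sgRNA_97 replicate 1. MEF2C was at 552.8 CPM there and at 494.9 to 510.1 CPM in the other 5. CDC6, the origin licensing gene, was at 66.1 CPM there and at 56.7 to 58.8 CPM in the others. The lowest SCR1 library was at 81.2 CPM, and ranges apart were required for this gene to be named.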

How the results depend on the processing

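In KO against SCR1, CCND3 and CDK4 passed in all 18 alternatives, E2F1 in 17, CDKN2C in 15, CDKN1B in 11, RB1 and RBL2 in 7 and CDK6 in 3, and no member changed direction. Members that passed in KO numbered 7, and 3 with limma on log2(TPM + 1) or log2(TPM + 0.1), 4 with the average transcript length offset and 3 to 7 with 1 library left out. For sgRNA_96 the 5 became 2 with either TPM test or the length offset per transcript and 2 to 5 with 1 library left out, and for sgRNA_97 they became 2, 2 and 2 to 6. Over all genes, KO gave 2984, and 1240 and 1246 with the TPM tests, 1634 with the average length offset and 1503 to 3547 with 1 library left out. sgRNA_96 gave 1615, and 448, 451, 735 and 743 to 1989, with 2485 under the GC trend offset. sgRNA_97 gave 2181, and 706, 706, 993 and 987 to 1791. sgRNA_97 against sgRNA_96 gave 3, and 8 with DESeq2, 106 without the filter, 0 with both TPM tests, 1 with the average length offset and 1 to 3 with 1 library left out. Other G1/S genes gave 18, and 10, 10 and 11 with the TPM tests and the average length offset, and 12 to 20 with 1 library left out. Quiescence-linked genes gave 8, and 5 with each of those and 5 to 8. S phase genes gave 24, and 20 with each TPM test, 21 with the average length offset, 25 with the GC trend offset and 21 to 24 with 1 library left out. CCNE1, E2F7, E2F8 and FOXO3 did not pass in the TPM tests. The cause was not tested.

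Deviations of libraries with the same replicate number correlated at -0.066 to 0.055, and those of libraries with different numbers at -0.066 to 0.088. No shared effect of the number was seen, which does not show whether libraries with the same number were made together. With the replicate block, 2936 genes passed in KO, 1576 for sgRNA_96, 2082 for sgRNA_97 and 1 between the guides, with 7 members in KO and 4 for each guide.

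Differences near 0 changed sign. CDK6 with sgRNA_97 was -0.0349 with the length trend offset. CDKN1A in KO was -0.00267 without the filter and -0.0148 to 0.0269 with 1 library left out. Between the guides, with 1 library left out, CDK4 ran from -0.0543 to 0.00192, CDKN2C from -0.00178 to 0.114, CDKN2D from -0.0612 to 0.209, RB1 from -0.0649 to 0.0252 and E2F1 from -0.0551 to 0.019. CDKN2D was -0.00749 and -0.00856 in the TPM tests, RB1 was 0.0528 and 0.0535 there and 0.055 with the average length offset, and E2F1 was 0.00787 with the GC trend offset.

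In SCR1 and KO, 3 counts corresponded to 0.101 to 0.197 CPM, so CCND2 could not be compared at this depth.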
